A study of Mus musculus with 7 samples.

Results

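Fatty acid oxidation genes are 10 of the 32544 genes measured in the abdominal aorta, taken whole from male Apoe-/- mice, and they were chosen by name: Cpt1a, Cpt2, Acadm, Acadl, Acadvl, Hadha, Hadhb, Etfa, Etfdh and Pdk4. All 10 were found in the table and all 10 passed the filter on low values. The ITA-LNP group (3 libraries) and the control-LNP group (4 libraries) had the same background: mice without apolipoprotein E, which develop atherosclerotic plaques, were kept for 12 weeks on a high-fat diet and given 50 mg/kg of particles into a vein each week. The sample titles write ITA-NP and control-NP, and the treatment protocol ITA-LNP and Ctrl-LNP. ITA is read from the series title as itaconate, a metabolite that activated macrophages make, and LNP is the usual short form of lipid nanoparticle. No age is given, and nothing in the labels ties a library to a mouse of its own, so a p-value here measures the spread between libraries, some of which may be technical. Values are CPM, reads per 1000000 reads assigned to genes. They come from 3′ mRNA sequencing, in which a transcript is read near its 3′ end, so levels of different genes can be set side by side without a correction for length.

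Mitochondrial beta-oxidation shortens a fatty acid from its acid end and hands the electrons to the respiratory chain. The carnitine shuttle brings long-chain acyl groups into the mitochondrion, an acyl-CoA dehydrogenase suited to the chain length starts each round, the trifunctional protein carries out the remaining steps for long chains, and the electron transfer flavoprotein passes the electrons on. Pdk4 blocks the entry of pyruvate and so favours fat over glucose as fuel. In the artery wall the pathway is known from endothelium, smooth muscle and macrophages, and around the vessel from adipocytes.

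The markers of the aortic wall, the labelled tissue of all 7 libraries, were abundant with ITA-LNP and low with control-LNP, while neutrophil, B cell, T cell, platelet and erythroid markers were the other way round. The summed smooth muscle markers were 71.0 times and the fibroblast markers 65.3 times higher with ITA-LNP, so the tissue label of the control-LNP libraries is in doubt. A difference in treatment and a difference in what was sampled cannot be told apart in any fold change below. The 10 smooth muscle markers, all detected in both groups, summed to between 17614 and 21236 CPM in the ITA-LNP libraries and between 159 and 468 CPM in the libraries labelled control-LNP. The 10 platelet markers summed to between 90.8 and 170.2 CPM with ITA-LNP and between 5372 and 6821 CPM with control-LNP. Fibroblast, endothelial, macrophage, B cell, T cell and erythroid lists averaged 21973, 1269, 2048, 155, 91.7 and 3648 CPM with ITA-LNP, against 337, 329, 1544, 3782, 1056 and 22853 CPM with control-LNP. Control-LNP replicate 2 stood apart from its group, with 10846 genes detected against 14232 to 15333 in the other control-LNP libraries, and its 11 neutrophil markers summed to 27132 CPM against 962 to 10380 CPM there. The fold changes of the 10 genes and the ratios are therefore also given without that library. In such bulk samples, fewer cells of a type and less RNA per cell cannot be told apart.

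Hadha and Hadhb encode the alpha and beta subunits of the trifunctional protein and lie head to head on chromosome 5, with annotated RefSeq starts 273 bases apart. Their promoter windows, 250 bases before to 50 after the start, overlap by 228 bases, and the window is shown because the levels of both genes are compared below. The sequence is RefSeq's on GRCm38.p6, minus strand, chr5:30154931-30155230, read 5′ to 3′ toward Hadha, and the capitals mark the stretch that it shares with the Hadhb window.
Hadha: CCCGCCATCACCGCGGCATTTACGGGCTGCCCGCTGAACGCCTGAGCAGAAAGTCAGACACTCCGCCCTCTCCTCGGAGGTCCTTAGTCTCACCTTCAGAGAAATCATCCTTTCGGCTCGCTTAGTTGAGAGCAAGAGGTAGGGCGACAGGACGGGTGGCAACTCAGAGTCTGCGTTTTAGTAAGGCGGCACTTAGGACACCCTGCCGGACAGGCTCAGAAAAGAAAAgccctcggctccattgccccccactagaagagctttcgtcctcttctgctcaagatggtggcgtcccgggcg

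Acadm, the medium-chain acyl-CoA dehydrogenase, gave the largest difference between the groups, and its window is shown for that reason (GRCm38.p6, minus strand, chr3:153944594-153944893; the capitals mark AGGTCA, the half-site of many nuclear receptors, read on the other strand).
Acadm: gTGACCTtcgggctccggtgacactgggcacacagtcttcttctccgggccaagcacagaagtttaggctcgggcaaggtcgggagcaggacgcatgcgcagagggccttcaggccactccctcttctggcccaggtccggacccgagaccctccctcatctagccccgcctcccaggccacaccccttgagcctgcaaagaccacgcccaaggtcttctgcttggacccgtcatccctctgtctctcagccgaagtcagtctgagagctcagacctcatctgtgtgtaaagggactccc
The direct repeat to which PPAR with RXR binds, searched as 2 copies of AGGNCA with 1 base between them, was found on neither strand in the windows of the 10 genes, and it was present in 0.381% of 32851 windows of all genes. TCAAGGTCA, the extended half-site of estrogen-related receptors, was likewise found in none of the 10, against 0.423% of all windows. AGGTCA alone, which TCAAGGTCA contains, stood in the windows of Acadm, Acadvl and Cpt1a, 3 of 10, against 16.3% of all windows. These are matches of letters in a short window only.

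**Figure D1:**
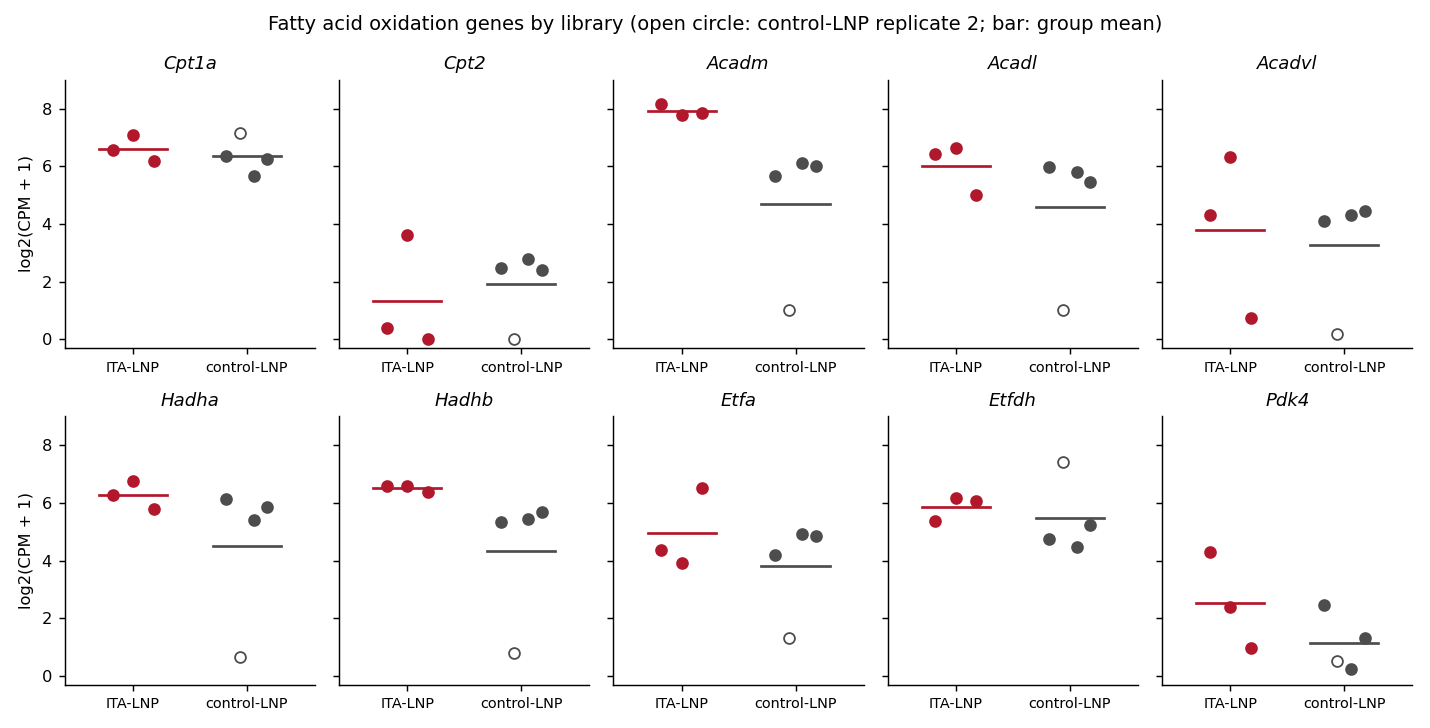
Level of each of the 10 genes in each library, as log2(CPM + 1) on a linear axis, with the 3 ITA-LNP libraries left and the 4 control-LNP libraries right in each panel; bars are group means and the open circle is control-LNP replicate 2. The ITA-LNP points lie above all control-LNP points for Acadm and Hadhb, and the open circle lies far below the other control-LNP points for Acadm, Acadl, Acadvl, Hadha, Hadhb, Etfa and Cpt2 but above them for Cpt1a and Etfdh.

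The 10 genes together had a summed level of 732 ± 102.8 CPM with ITA-LNP, against 351 ± 29.7 CPM with control-LNP (SD over 3 and 4 libraries), a ratio of 2.09. The sums lay between 629.7 and 835 CPM with ITA-LNP and between 319 and 381 CPM in the control-LNP libraries. Acadm alone averaged 245 CPM with ITA-LNP and 45.7 CPM with control-LNP, so the ratio is not that of each gene. In control-LNP replicate 2, Cpt1a made up 44.4% and Etfdh 53.8% of the sum. None of the 10 passed an adjusted p of 0.05 with all 7 libraries (limma on log2(CPM + 1), adjusted over the 12636 genes tested), where 15.5% of all tested genes passed. At an unadjusted p under 0.05 there was 1, Acadm, beside 29.3% of all tested genes. With voom, limma's test on the reads recovered from the CPM, 1 was called, again Acadm (adjusted p = 0.0420), beside 13.99% of all tested genes. Leaving out control-LNP replicate 2 gave 2, Acadm and Hadhb, both higher with ITA-LNP, where 31.4% of all genes were called, 15.7% higher and 15.7% lower. The median log2 fold change of the 10 genes was 1.27 beside 0.15 over all tested genes, and leaving out control-LNP replicate 2 gave 0.50 beside -0.31. Of the 10 white adipocyte markers, 9 were detected, Lep being at 0 in all libraries. Their sum lay between 5858 and 7234 CPM with ITA-LNP and between 69.2 and 405 CPM with control-LNP, but Fabp4, which macrophages and endothelium also express, made up 96.6% of its mean with ITA-LNP and 74.4% with control-LNP. Without Fabp4 the sum lay between 194 and 269 CPM with ITA-LNP, mostly Plin4 and Lipe, and between 20.2 and 76.5 CPM with control-LNP, mostly Lipe. Adipoq, a defining marker, was at 8.16, 0 and 15.7 CPM with ITA-LNP and had no reads in the 4 control-LNP libraries. Cidec and Cfd also had their highest values with ITA-LNP, but Plin1, Retn and Pck1 had theirs with control-LNP. Plin1 was at 0.784, 0.147 and 0.137 CPM with ITA-LNP, against 2.17, 0, 0.385 and 0.820 CPM with control-LNP. Retn was at 2.67, 0 and 0 CPM, against 1.18, 16.3, 3.85 and 1.80 CPM. The part of adipocytes in the result was not tested.

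Cpt1a (chromosome 19, 3322334 to 3385733 on mm10) is the carnitine palmitoyltransferase of the outer mitochondrial membrane, the regulated entry step of the pathway. It was at 93.3, 134 and 72.5 CPM in ITA-LNP replicates 1 to 3, against 80.4, 142, 50.2 and 75.1 CPM in control-LNP replicates 1 to 4. The groups overlapped, and the highest value was that of control-LNP replicate 2. The log2 fold change was 0.25 ± 0.51 (SE; 95% interval -0.89 to 1.40; limma adjusted p = 0.802), and 0.52 ± 0.34 without control-LNP replicate 2 (limma adjusted p = 0.279). With each library centred on its median the sign turned (-0.87, limma adjusted p = 0.625).

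Cpt2 (chromosome 4, 107903981 to 107923610), the partner enzyme of the inner membrane, had the lowest mean of the 10 genes with ITA-LNP. It was at 0.314, 11.2 and 0 CPM with ITA-LNP, on 2, 76 and 0 reads, against 4.53, 0, 5.96 and 4.26 CPM in control-LNP replicates 1 to 4, on 23, 0, 31 and 26 reads. A count of 0 allows up to 0.412 CPM in ITA-LNP replicate 3 and up to 0.449 CPM in control-LNP replicate 2. The ITA-LNP libraries thus held the highest value and a value of 0, and the groups overlapped. Its log2 fold change was -0.58 ± 1.12 (limma adjusted p = 0.792), or -1.22 ± 1.00 without control-LNP replicate 2 (limma adjusted p = 0.391). Without ITA-LNP replicate 3 its sign turned (0.085, limma adjusted p = 0.977). On the log2 scale the ratio of Cpt1a to Cpt2 within a library was 5.28 ± 1.57 in ITA-LNP and 4.44 ± 1.87 in control-LNP libraries (SD, n = 3 and 4; exact two-sided permutation test, p = 0.686; 0.800 adjusted over 5 ratios). The difference was 0.84, and 1.74 without control-LNP replicate 2. In ITA-LNP replicates 1 and 3 and control-LNP replicate 2, Cpt2 had at most 2 reads. The added 1 CPM thus made up most of the lower term of the ratio there.

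The other isoforms of the outer-membrane enzyme were scarce. Cpt1b, the muscle form, had no reads in the 3 ITA-LNP libraries and 2.36, 0, 0 and 3.28 CPM in control-LNP replicates 1 to 4; it is named after its values were seen. Cpt1c, the brain form, was at 1.88, 0 and 24.7 CPM with ITA-LNP, against at most 0.962 CPM in the control-LNP libraries, so that 1 library made nearly all of its level. Cpt1a was thus the most abundant of the 3 isoforms in every library.

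The acyl-CoA dehydrogenases differ in the chain length they prefer. Acadm (chromosome 3, 153922357 to 153944632) was at 283, 221 and 231 CPM with ITA-LNP, against 50.0, 1.05, 68.1 and 63.8 CPM in control-LNP replicates 1 to 4. Every ITA-LNP value lay above every control-LNP value. The group means were 245 ± 33.2 CPM with ITA-LNP and 45.7 ± 30.8 CPM with control-LNP (SD, n = 3 and 4), and 60.6 ± 9.43 CPM for control-LNP without replicate 2. ITA-LNP over control-LNP gave a log2 fold change of 3.22 ± 1.15 (95% interval 0.65 to 5.80) and did not pass (limma adjusted p = 0.0966). With control-LNP replicate 2 left out it became 2.00 ± 0.25 and passed (limma adjusted p = 0.000807). Over the 18 other settings it stayed positive, between 1.77 and 3.69, with limma adjusted p from 0.000807 to 0.236, and 6 of the 18 passed. Such separation, all ITA-LNP above all control-LNP values, held for 19.1% of all tested genes; among the 10 it held for Acadm and Hadhb, and without control-LNP replicate 2 also for Etfdh, where it held for 21.4% of all genes. The opposite separation held for none of the 10, beside 10.7% of all genes, or 24.2% without that replicate.

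Acadl (chromosome 1, 66830839 to 66863277), the long-chain dehydrogenase, was at 84.5, 99.2 and 30.8 CPM with ITA-LNP, against 62.0, 1.05, 55.2 and 43.3 CPM with control-LNP. ITA-LNP replicate 3 lay below 3 of the 4 control-LNP libraries, and the groups overlapped. The log2 fold change was 1.44 ± 1.20 (limma adjusted p = 0.486) with all libraries and 0.26 ± 0.47 (95% interval -0.82 to 1.35; limma adjusted p = 0.705) without control-LNP replicate 2.

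Acadvl (chromosome 11, 70010183 to 70015411), the very-long-chain dehydrogenase of the inner membrane, was at 19.0, 78.1 and 0.687 CPM with ITA-LNP, against 16.2, 0.150, 18.7 and 20.7 CPM with control-LNP. Its 3 ITA-LNP libraries spanned 114 times, on 121, 530 and 5 reads. Control-LNP replicates 1, 3 and 4 lay within 1.28 times of each other. Its log2 fold change was 0.53 ± 1.52 (limma adjusted p = 0.867) with all libraries and -0.48 ± 1.26 (limma adjusted p = 0.803) without control-LNP replicate 2. Exons of Dvl2 on the other strand share 1151 bases with those of Acadvl, 543 of them in the last 1000 bases of the gene. The use of strand in the counting is not given, so reads of the 2 genes may have been mixed there. Dvl2 was at 35.6, 54.1 and 71.5 CPM in ITA-LNP replicates 1 to 3, against 56.9, 62.5, 29.0 and 30.8 CPM in control-LNP replicates 1 to 4. Whether mixed reads play a part in the levels of Acadvl was not tested.

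Of the 5 ratios compared, that of the very-long-chain to the medium-chain dehydrogenase had the widest spread in the ITA-LNP group (SD 2.82). The log2 ratio of Acadvl to Acadm was -3.83, -1.49 and -7.11 with ITA-LNP and -1.57, -0.83, -1.81 and -1.58 with control-LNP. The groups overlapped through ITA-LNP replicate 2, and the difference was -2.69 (exact two-sided permutation test, p = 0.229; 0.714 adjusted over 5 ratios). It was -2.48 without control-LNP replicate 2. In that library the ratio rests on 1 and 7 reads, and the added 1 CPM pulls it toward 0. With 35 splits and a two-sided p that doubles the smaller tail, this test could not give a p under 0.05. It could therefore not call a difference for any ratio.

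Hadha (chromosome 5, 30118304 to 30155162), whose subunit holds the hydratase and long-chain hydroxyacyl-CoA dehydrogenase activities, was at 76.4, 108 and 54.8 CPM with ITA-LNP, against 69.9, 0.598, 41.9 and 56.7 CPM with control-LNP. The groups overlapped, with ITA-LNP replicate 3 below control-LNP replicates 1 and 4. Hadhb (chromosome 5, 30155248 to 30184593), whose subunit is the thiolase, was at 95.2, 94.8 and 81.8 CPM with ITA-LNP, against 40.0, 0.748, 42.3 and 50.5 CPM with control-LNP. Every ITA-LNP value of Hadhb lay above every control-LNP value, and the ITA-LNP values lay within 1.16 times of each other.

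For Hadhb the log2 fold change was 2.19 ± 1.14 (limma adjusted p = 0.240), and leaving out control-LNP replicate 2 gave 1.02 ± 0.27 (limma adjusted p = 0.0236). That call was lost when the 6 libraries were also centred on their medians (0.79, limma adjusted p = 0.0590). For Hadha it was 1.76 ± 1.24 (limma adjusted p = 0.401), and 0.47 ± 0.36 without control-LNP replicate 2 (95% interval -0.36 to 1.31; limma adjusted p = 0.354). The last 1000 bases of Hadha share 75 bases with an exon of Garem2 on the other strand.

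Within each library the trifunctional subunits were compared by their ratio. The log2 ratio of Hadha to Hadhb was -0.31, 0.19 and -0.57 with ITA-LNP and 0.79, -0.13, -0.01 and 0.16 with control-LNP. It averaged -0.23 ± 0.39 in ITA-LNP and 0.20 ± 0.41 in control-LNP libraries (SD, n = 3 and 4), and the difference was -0.43 (exact two-sided permutation test, p = 0.286; 0.714 adjusted over 5 ratios). In control-LNP replicate 2 the ratio rests on 4 and 5 reads, and the added 1 CPM pulls it toward 0. Without that library the difference was -0.55. The two-sided p doubled the smaller tail. Over 35 splits none under 0.05 was thus possible for any of the 5 ratios, even with full separation of the groups.

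**Figure D2:**
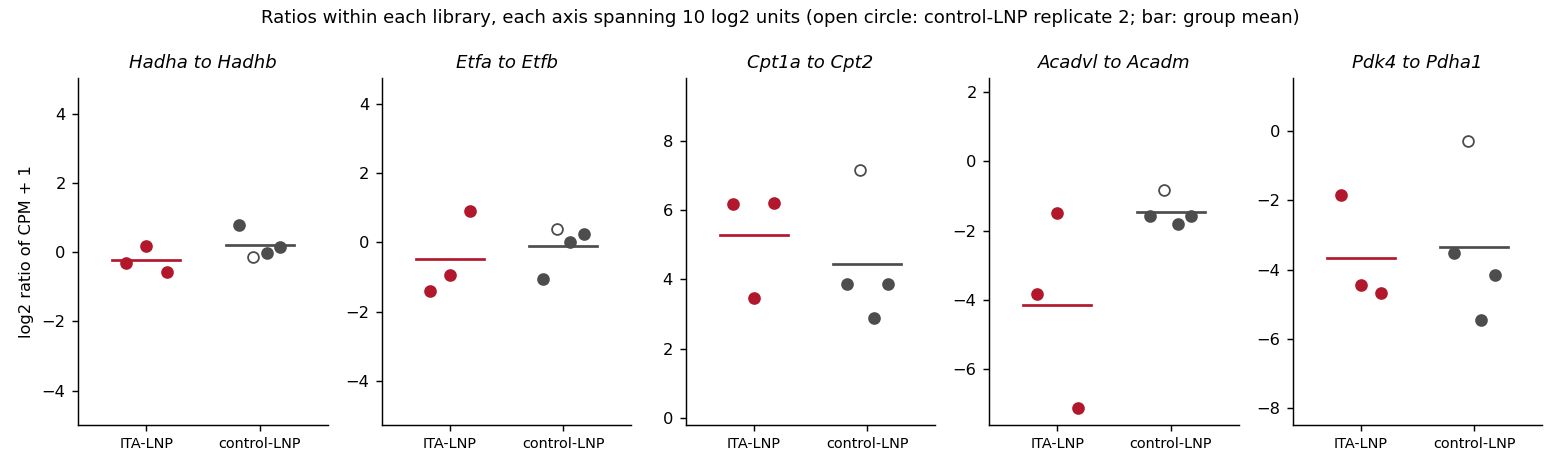
Ratio of the 2 genes named above each panel within each library, as a log2 ratio of CPM + 1 on axes of equal span, ITA-LNP left and control-LNP right; bars are group means and the open circle is control-LNP replicate 2. Hadha to Hadhb stays between -0.57 and 0.79, while Acadvl to Acadm runs from -7.11 to -1.49 in the ITA-LNP libraries.

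Etfa (chromosome 9, 55454508 to 55512243) encodes the alpha subunit of the electron transfer flavoprotein, which takes the electrons from every acyl-CoA dehydrogenase of the pathway. It was at 19.8, 14.3 and 91.5 CPM with ITA-LNP, against 17.5, 1.495, 29.0 and 28.0 CPM with control-LNP. ITA-LNP replicate 3 was the highest library, and the other ITA-LNP libraries fell within the range of the control-LNP libraries. ITA-LNP over control-LNP gave a log2 fold change of 1.12 ± 1.10 (limma adjusted p = 0.566), or 0.29 ± 0.70 without control-LNP replicate 2 (limma adjusted p = 0.789), and with median centring it was -0.0066 (limma adjusted p = 0.996). A processed pseudogene, Gm15289, matches 244 of the last 500 bases of Etfa at 95.1% identity and is listed with no reads. The log2 ratio of Etfa to the beta subunit gene Etfb was -1.39, -0.94 and 0.91 with ITA-LNP and -1.07, 0.40, 0.00 and 0.25 with control-LNP (difference -0.37; exact two-sided permutation test, p = 0.686; 0.800 adjusted over 5 ratios). Without control-LNP replicate 2 the difference was -0.20. In that library Etfa was at 1.495 and Etfb at 0.897 CPM, so the added 1 CPM pulls their ratio toward 0.

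Etfdh (chromosome 3, 79603788 to 79629500), the inner-membrane oxidoreductase that passes these electrons to ubiquinone, was at 40.5, 70.4 and 65.4 CPM with ITA-LNP, against 25.8, 172, 21.2 and 36.9 CPM with control-LNP. Its highest value by far was in control-LNP replicate 2, 6.15 times the mean of the other control-LNP libraries, on 1149 reads. Against those others every ITA-LNP value was higher. The log2 fold change was 0.39 ± 0.77 (limma adjusted p = 0.801) with all libraries and 1.04 ± 0.39 (95% interval 0.13 to 1.95; limma adjusted p = 0.0814) without control-LNP replicate 2. With median centring of all 7 libraries the sign turned (-0.74, limma adjusted p = 0.744).

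Pdk4 (chromosome 6, 5483351 to 5496309), the kinase that switches off pyruvate dehydrogenase and a known target of PPAR, was scarce. It was at 18.5, 4.27 and 0.961 CPM with ITA-LNP, on 118, 29 and 7 reads, against 4.53, 0.449, 0.192 and 1.48 CPM with control-LNP, on 23, 3, 1 and 9 reads. The groups overlapped, and ITA-LNP replicate 1 held most of the ITA-LNP level. Its log2 fold change was 1.41 ± 1.00 (95% interval -0.83 to 3.66; limma adjusted p = 0.402), with limma adjusted p from 0.236 to 0.871 over the other settings. Without control-LNP replicate 2 it was 1.21 ± 1.00 (limma adjusted p = 0.397). The log2 ratio of Pdk4 to Pdha1, the subunit that it phosphorylates, was -1.86, -4.43 and -4.67 with ITA-LNP and -3.52, -0.27, -5.45 and -4.14 with control-LNP (difference -0.30; exact two-sided permutation test, p = 0.800; 0.800 adjusted over 5 ratios). Without control-LNP replicate 2 that difference was 0.72. In that library Pdk4 was at 0.449 and Pdha1 at 0.748 CPM, so the added 1 CPM pulls their ratio toward 0.

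**Figure D3:**
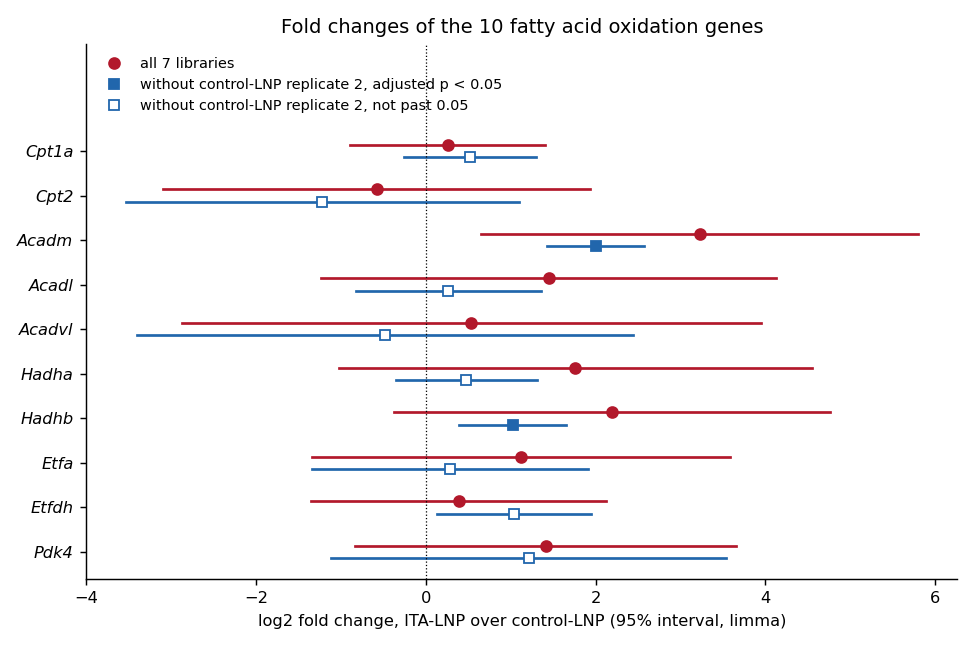
Log2 fold change of each of the 10 genes, ITA-LNP over control-LNP, with its 95% interval from limma, for all 7 libraries (circles) and without control-LNP replicate 2 (squares, filled where the adjusted p was under 0.05). With all libraries only the interval of Acadm, 0.65 to 5.80, lies clear of 0 and none of the 10 passes after adjustment; without that library Acadm and Hadhb pass.

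The order of the levels differed between the groups. In the ITA-LNP libraries Acadm came first and made up 38.7%, 26.4% and 36.7% of the summed level of the 10 genes in replicates 1 to 3. In the control-LNP libraries its share was 13.5%, 0.328%, 20.5% and 16.8%, and the highest mean level was that of Cpt1a. After Acadm, whose ITA-LNP values did not overlap those of the next gene, the ITA-LNP order was Cpt1a, Hadhb, Hadha, Acadl, Etfdh, Etfa, Acadvl, Pdk4 and Cpt2, and each neighbour pair overlapped. In control-LNP replicates 1, 3 and 4 the order was Cpt1a, Acadm, Hadha, Acadl, Hadhb, Etfdh, Etfa, Acadvl, Cpt2 and Pdk4. There, neighbours overlapped except at the steps from Hadhb to Etfdh and from Acadvl to Cpt2.

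Control-LNP replicate 2 had its own pattern. Of the 10 genes, 7 lay under 1/10 of the lowest other control-LNP library, and 2, Cpt1a and Etfdh, lay above the highest. Over all tested genes 48.7% lay under 1/10 and 20.4% lay above. Cpt1a made up 44.4% and Etfdh 53.8% of the summed level of the 10 genes in that library. The 17 further beta-oxidation enzymes summed to 19.0 CPM there, against 347 to 440 CPM in the other control-LNP libraries. The 18 genes taken as a measure of mitochondrial content summed to between 2110 and 2195 CPM in the ITA-LNP libraries, to 1570 CPM in control-LNP replicate 2 and to between 1933 and 2059 CPM in the other control-LNP libraries.

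The spread within the groups differed too. Over all tested genes the median SD of log2(CPM + 1) was 0.84 in the ITA-LNP libraries and 1.30 in the control-LNP libraries, or 0.39 without replicate 2. For the 10 genes it was 0.69 in the ITA-LNP libraries and 1.87 in the control-LNP libraries, or 0.31 without replicate 2. In the ITA-LNP group the SD ran from 0.12 for Hadhb to 2.81 for Acadvl. Among the ITA-LNP values, Acadm and Hadhb were close together, while Acadvl, Cpt2, Pdk4 and Etfa differed several-fold from library to library.

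The wider pathway was described by 9 other lists with 124 entries, of which 105 genes were tested; 10 were higher and 1 lower with ITA-LNP, where 10.3% of all tested genes were higher and 5.15% lower. Without control-LNP replicate 2 the counts were 23 and 3, where 15.7% of all tested genes were higher and 15.7% lower. Of 16 further mitochondrial beta-oxidation enzymes tested, 1 was higher with all libraries and 4 without that replicate. The median log2 fold change of the 16 was 1.51 and 0.53, beside 0.15 and -0.31 over all tested genes. Acadsb, the dehydrogenase of short branched chains, rose to 143 ± 23.2 CPM with ITA-LNP, against 27.9 ± 12.4 CPM with control-LNP (2.45 ± 0.60, limma adjusted p = 0.0212). It passed in 12 of 18 other settings and when 3 of the 7 libraries were left out in turn, and not with median centring (limma adjusted p = 0.238) or with the replicate number as a block (0.123). Mut and Pccb, which carry propionyl-CoA from odd chains on to succinyl-CoA, averaged 97.3 and 48.9 CPM with ITA-LNP and 18.9 and 9.21 CPM with control-LNP. Their limma adjusted p was 0.0989 and 0.108 with all libraries and 0.00905 and 0.0137 without that replicate.

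Of 8 carnitine shuttle and acyl-CoA activation genes tested, none passed with all libraries (limma; 0 at an unadjusted p under 0.05, 0 by voom). The first 3 by p were Crat, a carnitine acetyltransferase (1.91 ± 1.02, limma adjusted p = 0.252), Cpt1c (1.78 ± 1.05, limma adjusted p = 0.302) and Acsl1, which activates long-chain fatty acids (1.11 ± 0.67, limma adjusted p = 0.311). Acsl1 passed without control-LNP replicate 2 (1.51, limma adjusted p = 0.0222). Of 13 peroxisomal genes, none passed with all libraries (limma; 3 at an unadjusted p under 0.05, 0 by voom). Without that replicate 4 were higher, beside 15.7% of all tested genes. They included Pex11a, a peroxisome division protein (2.94 ± 0.91, limma adjusted p = 0.0580 with all libraries), the transporter Abcd3 (2.59 ± 1.15, 0.170) and the multifunctional enzyme Hsd17b4, named after its values were seen (2.16 ± 1.02, 0.195).

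Of 12 genes of the pyruvate dehydrogenase complex and its regulators, none passed with all libraries (limma; 2 at an unadjusted p under 0.05, 0 by voom). Without control-LNP replicate 2, Dlat and Mpc1 were higher and Pdk1 lower, beside 15.7% of all tested genes in each direction. Pdk1, a kinase of the same family as Pdk4, averaged 49.8 ± 10.3 CPM with ITA-LNP and 109.7 ± 27.9 CPM with control-LNP (-1.10 ± 0.48, limma adjusted p = 0.159; 0.00840 without that replicate). Dld, the shared lipoamide dehydrogenase, had -1.87 ± 0.80 (limma adjusted p = 0.154) and Dlat, the acetyltransferase core, 2.24 ± 1.01 (limma adjusted p = 0.177). Of 9 genes of the malonyl-CoA axis, which holds back Cpt1a when fat is being made, none passed with or without that replicate (limma; 0 at an unadjusted p under 0.05 and 0 by voom with all libraries). The first 3 by p were the AMP-activated kinase subunits Prkab1 (-1.28 ± 0.99), Prkag1 (1.49 ± 1.21) and Prkaa1 (-1.38 ± 1.28), with limma adjusted p of 0.449, 0.476 and 0.542.

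The fatty acid supply and lipolysis genes gave the most calls of the 9 lists. Of 11 tested, 5 rose with ITA-LNP and 6 without control-LNP replicate 2, and the list summed to between 8556 and 10696 CPM with ITA-LNP and between 276 and 543 CPM with control-LNP. Fabp4, a fatty acid carrier of adipocytes, macrophages and endothelium, was at 6271 ± 729 CPM with ITA-LNP and 128 ± 134 CPM with control-LNP (6.06 ± 0.57, limma adjusted p = 0.000184). Mgll, which frees the last fatty acid of a monoglyceride, had 6.15 ± 0.66 (limma adjusted p = 0.000352), and Lpl, the lipoprotein lipase, 5.97 ± 0.69 (limma adjusted p = 0.000513). The other 2 were Fabp5 and the fatty acid receptor Cd36, with 4.14 ± 0.53 and 5.32 ± 0.83 (limma adjusted p = 0.000864 and 0.00222). With median centring Fabp4 (limma adjusted p = 0.0593) and Fabp5 (0.161) no longer passed. Fabp4 and Lipe of this list are also in the white adipocyte list, whose sum is mostly Fabp4 and so is no separate measurement.

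Of 12 PPAR and ERR regulators tested, 2 rose, and 3 without control-LNP replicate 2. Over all tested genes 10.3% were higher, or 15.7% without that replicate. Klf15, a transcription factor of lipid and amino acid use, was at 69.8, 84.4 and 88.6 CPM with ITA-LNP, against 0.197, 0.449, 0.385 and 0 CPM with control-LNP (6.03 ± 0.80, limma adjusted p = 0.00105). Rxra, the partner receptor of the PPARs, was at 36.4 ± 8.90 CPM with ITA-LNP and 3.81 ± 2.52 CPM with control-LNP (3.18 ± 0.92, limma adjusted p = 0.0440). The call of Klf15 held in all 18 other settings, that of Rxra in 7 of them (limma adjusted p up to 0.140), of which 1 left out a library, control-LNP replicate 2. Pparg, the adipocyte PPAR, had 2.83 ± 0.86 (limma adjusted p = 0.0538) and passed without control-LNP replicate 2 (2.47, limma adjusted p = 0.0220). Ppara, the PPAR best known for driving beta-oxidation in liver, was below the filter, at 2.35, 0 and 0 CPM with ITA-LNP and 0.197, 0, 0 and 1.31 CPM with control-LNP; it is also in the brown adipocyte list and was named with its values known.

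Of 13 PPAR target genes, 6 were tested, of which 2 rose and 1 fell. Over all tested genes 10.3% were higher and 5.15% lower. Angptl4, a secreted inhibitor of lipoprotein lipase, was at 135 ± 42.5 CPM with ITA-LNP and 14.7 ± 23.2 CPM with control-LNP, 49.3 CPM of it in replicate 2 (4.20 ± 1.07, limma adjusted p = 0.0256). Angptl4 passed in 10 of 18 other settings (limma adjusted p up to 0.265), and of the 7 libraries left out in turn only the omission of control-LNP replicate 2 kept the call. Ucp2, a mitochondrial carrier abundant in leukocytes, fell by 2.18 ± 0.44 on the log2 scale (limma adjusted p = 0.00789), to 59.6 ± 6.55 CPM with ITA-LNP against 295 ± 148 CPM with control-LNP. With the replicate number as a block its limma adjusted p was 0.0563. Of the 18 mitochondrial content genes none passed with all libraries (limma; 1 at an unadjusted p under 0.05, 0 by voom). Their median log2 fold change was 0.44, beside 0.15 over all tested genes. Without control-LNP replicate 2 it was -0.24, beside -0.31. Among the first by p were Phb2 (-1.86 ± 0.83) and Atp5a1 (0.62 ± 0.29), with limma adjusted p of 0.169 and 0.185. Without control-LNP replicate 2, 1 was higher and 1, Tomm20, lower, beside 15.7% of all tested genes in each direction.

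**Figure D4:**
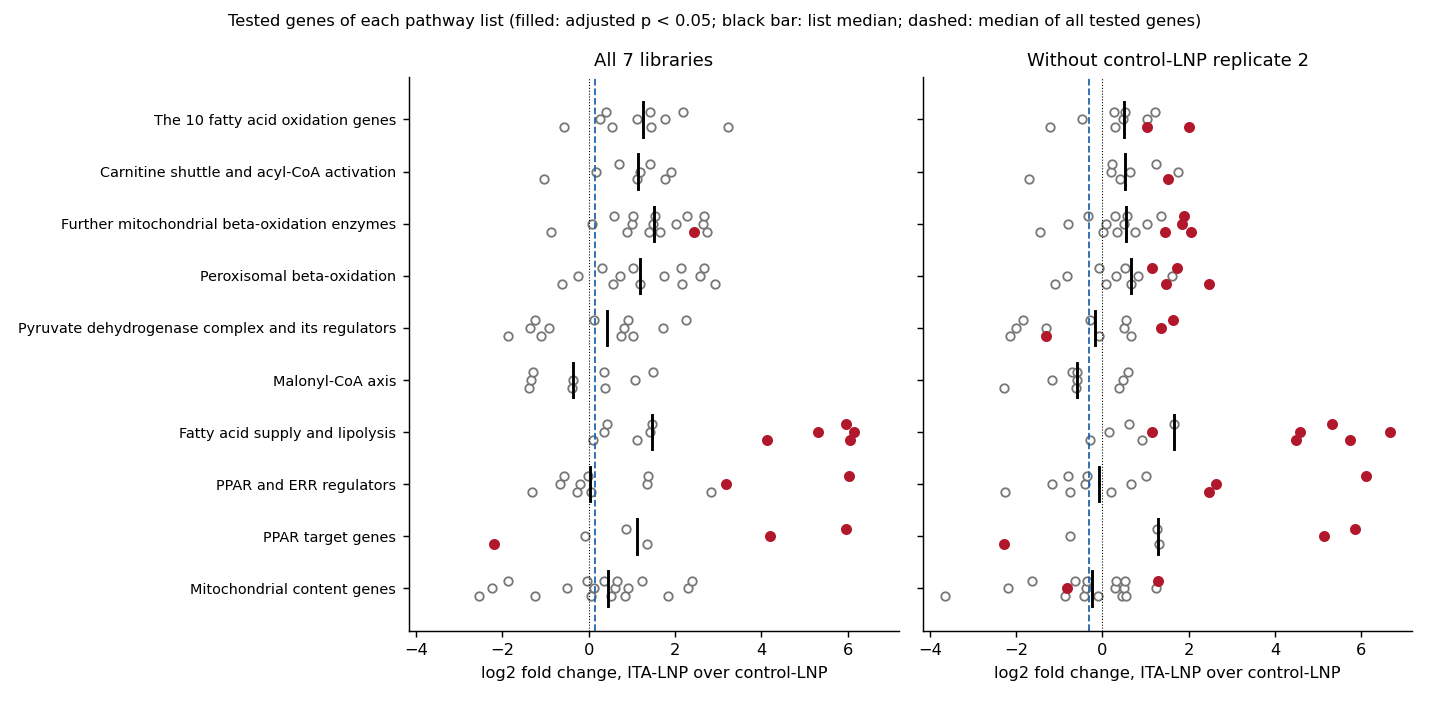
Log2 fold change of every tested gene of the 10 fatty acid oxidation genes and of the 9 other lists, ITA-LNP over control-LNP, with all 7 libraries (left) and without control-LNP replicate 2 (right); each point is a gene, filled where the adjusted p was under 0.05, the black bar is the list median and the dashed line the median of all tested genes. The fatty acid supply list holds 5 filled points at 4.14 or above on the left, while the 10 genes hold none on the left and 2 on the right.

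Cell types with much beta-oxidation were looked for by their markers. The 8 brown adipocyte markers, of which Elovl3 and Otop1 were at 0 in all libraries, summed to between 20.3 and 60.9 CPM with ITA-LNP and between 0.150 and 4.59 CPM with control-LNP. The 8 cardiomyocyte markers summed to between 21.3 and 55.6 CPM with ITA-LNP and between 3.08 and 15.997 CPM with control-LNP. The 10 skeletal muscle markers, with Myh4 at 0 in all libraries, summed to between 0.295 and 23.7 CPM with ITA-LNP and between 0.299 and 12.4 CPM with control-LNP. The part of these cell types in the levels of the 10 genes was not tested.

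Genes whose pattern was most like that of Cpt1a over the 7 libraries, by Pearson's r of log2(CPM + 1), were St13 (0.97), Vwa5b2 (0.95) and Rab29 (0.94), and those most like Pdk4 were H13 (0.96), Zfp36l1 (0.95) and Napepld (0.95). These were the highest values over the other tested genes, with predicted and clone names left out, and are a description of these libraries.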

How the data were processed

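Libraries were made with a QuantSeq 3′ kit, per the labels' protocols, with mm10 named as the build, per the submitters' processing notes. Not given in the sources used here: aligner, counter, annotation and strand. The authors deposited log10 values, read as log10(CPM + 1) because 10 to the value, minus 1, summed to 1000000 in every column. Within a library these were whole multiples of 1 step for 100% of values (tolerance 0.01), giving 5077073 to 7281721 reads per library. A count of 0 was taken to allow up to 3 reads, for counting error only.

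From these, log2(CPM + 1) was tested with limma-trend (limma 3.58.1, R 4.3.3) in the 12636 genes with a mean log2(CPM + 1) of at least 1, with Benjamini-Hochberg adjustment and a threshold of 0.05; the scale understates the change of low genes. ITA-LNP was set against control-LNP without covariates, and ± after a fold change is the SE. The 5 within-library ratios were compared by exact permutation over 35 splits. The two-sided p doubled the smaller tail, so none under 0.05 was possible. The design had assumed a log2 unit. The limma fit was checked on simulated reads.

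The members and lists were chosen with earlier results of these data known. Named are the 10 genes, the first 3 of each other list by p, any of 5 or fewer called, and the 3 genes most like Cpt1a and Pdk4. Some genes that this rule names are not reported here. Coordinates are from GENCODE M21 (mm10), which held all 10, and promoters from RefSeq. Alternatives were other filters, pseudocounts, scalings, priors and weights, voom, a replicate block and leaving out each library. Python 3.11.15, pandas 2.3.3, numpy 2.4.6, scipy 1.17.1 and matplotlib 3.10.9 were used.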

Additional observations from a re-analysis of the deposited data

Results flagged for a closer look

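Of 15 measures tested for a sample far from the rest of the 4 control-LNP libraries (the 10 genes and the 5 ratios), 6 had 1, where chance flags about 1 in 20. In all 6 it was replicate 2, which lay far below the others on the log2(CPM + 1) scale. The 15 measures share that library and some genes, so they are not independent. The same rule was not run over all genes, but 48.7% of all tested genes had replicate 2 under 1/10 of the lowest other control-LNP library. Of the 10 genes, 7 lay under that mark. Whether the flags are particular to the 10 genes was not tested. The flagged values of replicate 2 were 0 CPM for Cpt2, 1.05 CPM for Acadm, 1.05 CPM for Acadl, 0.150 CPM for Acadvl, 0.598 CPM for Hadha and 0.748 CPM for Hadhb. Groups of 3, such as the ITA-LNP libraries, were not tested in this way.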

How the results depend on the processing

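With all 7 libraries none of the 10 genes passed. There was 1, Acadm, with a pseudocount of 4 CPM, quantile normalization, array weights or voom, or without control-LNP replicate 2 with median centring, and leaving out each library gave 0 to 2. Over all genes 1957 passed; quantile normalization gave 3015, array weights 4343, median centring without control-LNP replicate 2 gave 4228, and leaving out each library gave 1372 to 3964, the highest without control-LNP replicate 2. The cause was not tested. Median centring moved the median of all genes from 0.15 to -0.98 on the log2 scale and the share of higher among called genes from 66.7% to 37.2%. Under it the signs of Cpt1a (-0.87), Acadvl (-0.59), Etfa (-0.0066) and Etfdh (-0.74) turned, and the 10 genes' median was 0.14. Acadvl also turned with array weights (-0.55), after leaving out ITA-LNP replicate 2 (-0.72) or control-LNP replicate 2 (-0.48), and without control-LNP replicate 2 and with centring (-0.71); leaving out each library gave -0.72 to 2.05. Cpt2 turned without ITA-LNP replicate 3 (0.085; range over libraries left out -1.72 to 0.085). Of the ratios, Etfa to Etfb turned without ITA-LNP replicate 1 (0.086; range -1.06 to 0.086), and Pdk4 to Pdha1 without ITA-LNP replicate 2 (0.084), ITA-LNP replicate 3 (0.20) or control-LNP replicate 2 (0.72; range -1.20 to 0.72). Acadm, Acadl, Hadha, Hadhb and Pdk4 kept their sign in every setting run for them. With the replicate number as a block 1060 genes passed and none of the 10; deviations of same-numbered libraries correlated at 0.01, -0.01 and -0.02, so the numbers were not taken as pairs. The edgeR, DESeq2 and TMM alternatives were not run; of the count methods only voom, without TMM, was run on the recovered reads. For Cpt2 and Pdk4 the spread between libraries gave wide 95% intervals (-3.09 to 1.93 and -0.83 to 3.66).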
